A study of Mus musculus with 6 samples.

Results

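Late pregnancy was compared with the pre-pregnant state in the liver of CYP2D6-humanized mice, using 4 of the study's 6 arrays: 2 from livers at 21 days of pregnancy and 2 from livers before pregnancy. The other 2 arrays came from livers at 7 days postpartum and are used for their levels and for the estimate of spread. All 6 mice were C57BL/6 animals carrying the human CYP2D6 transgene, the pre-pregnancy mice included, so nothing here separates the transgene from the strain. CYP2D6 encodes a human drug-metabolizing cytochrome P450, and 0 probe sets carried its symbol. The study addressed hepatic gene expression across pregnancy. The labels give biological replicates, 1 array each, without the animals' age, collection time of day, feeding state or litter, and they do not say what promoter drives the transgene. Each of 18194 genes was represented by the brightest of its probe sets (groups of short probes that report a transcript region) among those with exactly 1 gene symbol, and the comparison ran across all of them. Values are log2 signal levels, so a difference of 1 is a doubling. Levels of different genes are not compared, because probe sets differ in how brightly they report.

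Late in gestation the maternal liver supplies glucose, lipids and plasma proteins to a fetus near term while placental hormones, estrogens and glucocorticoids circulate at high levels. The maternal liver of rodents grows during pregnancy, through both larger hepatocytes and a period of DNA synthesis. Hepatocytes also make most of the plasma proteins, among them the clotting factors, complement, protease inhibitors and the carriers of hormones. The results below follow these functions: the cell cycle first, then secreted proteins, hormone signalling, metals, proteolysis and protein folding, cofactors, and the markers of other cell types.

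The arrays resembled each other closely. Their median levels lay between 5.09 and 5.15, and replicates of a group differed by a median of 0.12 to 0.14. The pregnancy group had the most genes whose replicates lay over 1 apart, 162, against 24 before pregnancy and 57 postpartum. The 3′ minus 5′ signal of the actin control, a sign of RNA quality, was 1.27 and 1.19 before pregnancy and 1.06 and 1.21 in pregnancy. That of the Gapdh control was -0.02 and 0.00 before pregnancy and 0.09 and 0.27 in pregnancy, so it was higher in both pregnancy livers, and its part in the results was not tested. The labelled tissue matched its markers: Alb, the gene for albumin, stood at 14.93 and 14.87 before pregnancy and 14.98 and 14.91 in pregnancy, near the top of the scale.

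At a Benjamini-Hochberg adjusted p under 0.05 (limma, two-sided, all 6 arrays in the fit), 2494 of the 18194 genes differed, which is 13.7%. That share is the background set beside the counts below, with a limit from brightness given further on. Of these, 993 were higher in pregnancy (5.46%) and 1501 lower (8.25%). At least 2-fold differences were found for 133 genes that rose and 298 that fell, and at least 4-fold for 17 and 33. In the words used here, a gene "rose" or "fell" only where it passed this test. The pregnancy and pre-pregnancy arrays of a gene did not overlap for 59.6% of all genes, 33.6% higher and 26.0% lower, so a lack of overlap alone says little with 2 arrays a group. The median difference of all genes was 0.05. When genes were ordered by brightness into 5 equal bins, calls were made for 2.14% of the dimmest bin and for 20.4% and 20.9% of the 2 brightest. In the brightest bin 304 of 3639 genes rose and 455 fell. Most lists below hold mainly genes of at least median brightness, so 13.7% is a low background for them. A list with about 20% called is close to genes as bright. Of 10092 further probe sets with no symbol or with several, which are not named here, 216 rose and 291 fell, 5.02% in all.

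The count depended heavily on single arrays. Without pre-pregnancy replicate 1 it was 323, without pre-pregnancy replicate 2 876, without pregnancy replicate 2 1227 and without pregnancy replicate 1 1952. Calls that held in all 6 fits that left out 1 array numbered 293. For each gene list below, the counts without each of these 4 arrays are therefore given where any of them differs by over 1.5 times. The phrase "in 6 of 6 left-out fits" says how often a single gene's call held. In such tallies the 2 fits without a postpartum array are the same fit, because a single array left in that group adds nothing to the spread. They equal a fit of the 4 compared arrays alone and leave none of those out, so they add little to a tally.

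The choice of probe set mattered too. Among the 418 genes of the lists and of the rules for naming genes that passed the test, 247 had further, dimmer probe sets, and for 110 of these no further one passed the same way. When a gene's probe sets were averaged in place of taking the brightest, 73 of the 247 no longer passed, 4 of them with the opposite sign, and 62 passed with a difference changed by over 1.5 times. The averaged value is given below for each such gene described by its values.

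**Figure D1:**
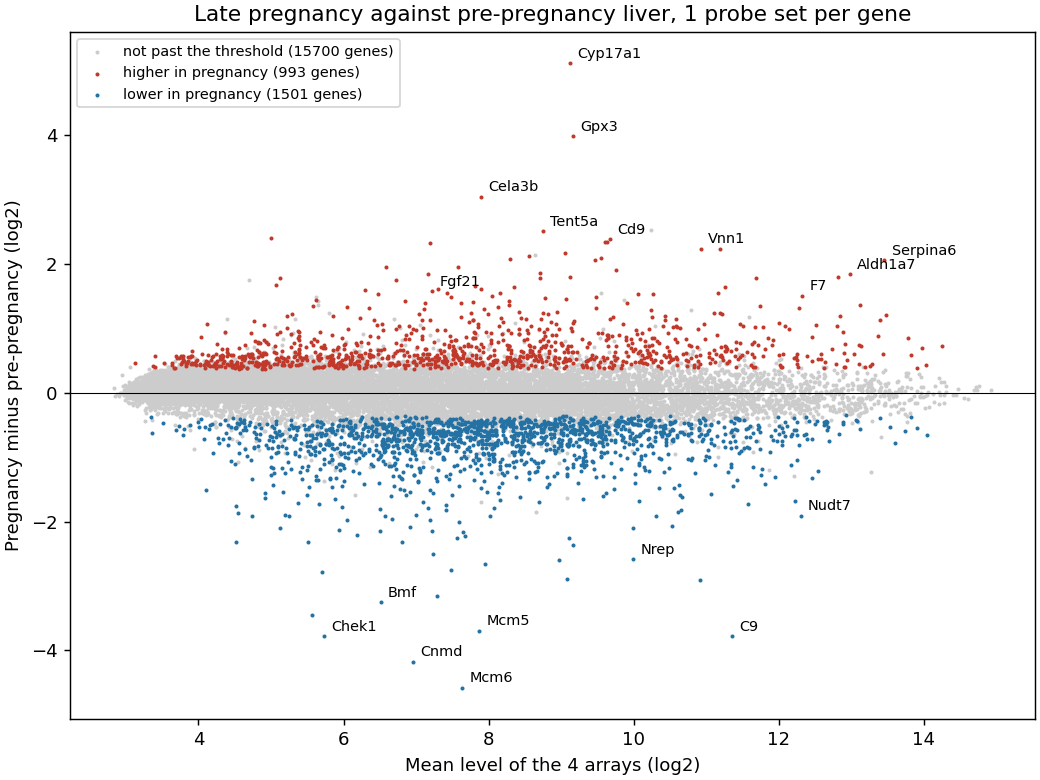
Difference between pregnancy and pre-pregnancy liver (log2, vertical axis) against the mean level of the 4 arrays (log2, horizontal axis), 1 point a gene. The 993 genes that rose are red, the 1501 that fell are blue and the other 15700 are grey. Cyp17a1 and Gpx3 stand at the top and Mcm6 and Cnmd at the bottom.

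Among 20 rises and 20 falls picked for size among genes of at least median brightness, outside the main drug-metabolism families, 31 of the 40 calls held in all 6 left-out fits. The largest rise was Cyp17a1, the steroid 17-alpha-hydroxylase that leads from progestins to androgens. It stood at 6.64 and 6.49 before pregnancy and 11.39 and 11.95 in pregnancy, a rise of 5.11 (SE 0.29, adjusted p = 0.000227). Both pregnancy livers lay far above both others, and the postpartum livers were as high as the pregnant ones, at 11.91 and 11.01.

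Gpx3, the glutathione peroxidase secreted into plasma, read 7.40 and 6.94 before pregnancy and 11.02 and 11.28 in pregnancy, a rise of 3.98 (SE 0.17, adjusted p = 9.03e-05). Cela3b, a digestive elastase best known from the pancreas, read 6.31 and 6.44 before and 9.23 and 9.59 in pregnancy, a rise of 3.04 (SE 0.17, adjusted p = 0.000227). Neither gene shared the postpartum level of Cyp17a1: Gpx3 read 7.74 and 7.87 and Cela3b 6.41 and 6.78 there, close to their levels before pregnancy.

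Several of the other large rises were genes of the cell surface and the extracellular matrix. Cd9, a tetraspanin membrane protein, rose by 2.38 (SE 0.17) from 8.46 and 8.51 to 10.65 and 11.07. Nid1, which encodes the basement membrane protein nidogen, rose by 2.10 (SE 0.22) from 8.60 and 8.40 to 10.30 and 10.89. Cd36, the fatty acid receptor and transporter, rose by 2.17 (SE 0.24) from 8.27 and 7.67 to 10.39 and 9.88. With 1 array left out the differences were 2.17 to 2.59 for Cd9, 1.80 to 2.39 for Nid1 and 1.87 to 2.47 for Cd36. Genes picked for size all had pregnancy and pre-pregnancy arrays that did not overlap, so the lack of overlap adds nothing here. Adamts16, a secreted metalloprotease, rose by 1.84 (SE 0.19). Spon2, a matrix protein, rose by 2.32, but its pregnancy arrays read 9.08 and 7.62, far apart, and the call held in 4 of 6 left-out fits. Nid1, Adamts16 and Spon2 differed by 0.96, 1.07 and 1.34 with the mean of all their probe sets.

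Rises among regulators included Tent5a, a poly(A) polymerase that lengthens messenger tails, at 2.51 (SE 0.27), and Rgs16, an inhibitor of G protein signalling, at 2.06 (SE 0.23). Peg3, an imprinted gene expressed from the paternal copy, went from 8.16 and 8.72 to 10.40 and 11.16. Ggct, an enzyme of glutathione breakdown, rose by 1.86, and Aldh1a7, an aldehyde dehydrogenase, rose by 1.84 from 12.25 and 11.88 to 13.76 and 14.04. Rogdi rose by 2.33 and Crip1 by 1.90. Slc16a6, a carrier of ketone bodies, read 7.38 and 7.61 before and 8.65 and 10.57 in pregnancy. Its rise of 2.12 and that of Sorcs3, 1.94, held in 2 and 1 of 6 left-out fits. Ndrg1, a stress-responsive gene, rose by 2.08 with its call held in 4 of 6. Peg3 and Ggct differed by 1.14 and 0.80 with the mean of all their probe sets.

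The largest falls were led by DNA replication genes, described next, but not made up of them alone. Cnmd, which encodes the cartilage glycoprotein chondromodulin, read 9.28 and 8.80 before pregnancy and 5.0 and 4.73 in pregnancy, a difference of -4.18 (SE 0.17, adjusted p = 9.03e-05). Its pregnancy levels lay under 5.52, the limit below which the dimmest 40% of genes lie, so the size of the fall is uncertain there. The same holds for the falls of Bmf, Chek1, Fignl1, Uhrf1, Rad51ap1, Serpinb1a, Mia2, Gmds and Il15, described below. Bmf, a member of the Bcl2 family that promotes cell death, fell from 8.33 and 7.95 to 4.91 and 4.86 and was as low postpartum, at 5.15 and 4.78. Bmf differed by -1.13 with the mean of all its probe sets.

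Aacs, a cytosolic enzyme that activates acetoacetate for lipid synthesis, read 10.53 and 10.53 before pregnancy and 7.07 and 8.20 during it, against 10.24 and 10.46 postpartum. The pregnant livers were the low ones and the other 4 lay together. Nrep fell by 2.59 (SE 0.33) from 11.07 and 11.50 to 8.39 and 9.01. Mfsd2a, a carrier of lysophosphatidylcholine, fell by 2.26 (SE 0.15), and Gas2, a cytoskeletal regulator, by 2.26 (SE 0.19). Hsd3b2 and Hsd3b5 are steroid dehydrogenases of one closely related family. Hsd3b2 fell by 2.60 (SE 0.23) and Hsd3b5 fell by 2.66 (SE 0.53). The Hsd3b5 call held in 2 of 6 left-out fits, and probe sets of this family may report its other members too. Aacs and Gas2 differed by -1.82 and -1.12 with the mean of all their probe sets.

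**Figure D2:**
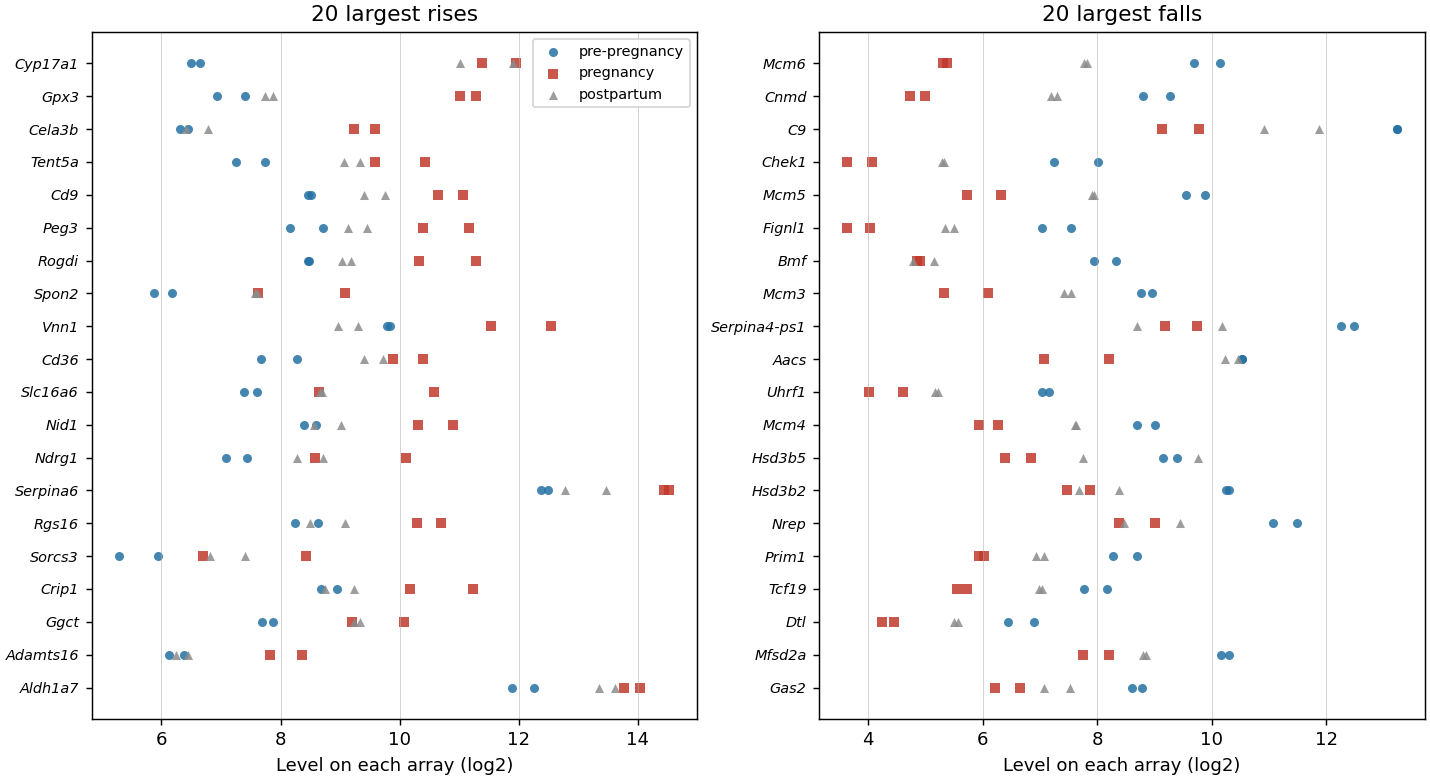
Level of each array (log2, horizontal axis) for the 20 largest rises (left) and the 20 largest falls (right), with pre-pregnancy livers as blue circles, pregnancy livers as red squares and postpartum livers as grey triangles. Gpx3 and Cela3b are high in the pregnancy livers alone, whereas Cyp17a1 is as high postpartum.

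DNA replication begins at origins marked by the origin recognition complex, where Cdc6 and Cdt1 load the ring-shaped helicase made of the Mcm2 to Mcm7 proteins. DNA polymerases, the sliding clamp Pcna and its loader then copy the strands. Genes of this machinery are classic targets of the E2F transcription factors. Of 50 replication factors measured, 35 fell and 0 rose, which is 70.0% called against a background of 13.7% in either direction. Their median difference was -1.14, against 0.05 over all genes. The 35 falls became 25 and 29 without pre-pregnancy replicates 1 and 2, and 37 and 30 without pregnancy replicates 1 and 2. All 6 of the helicase ring genes fell.

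Mcm6 read 10.14 and 9.70 before pregnancy and 5.38 and 5.31 in pregnancy, a difference of -4.58 (SE 0.15, adjusted p = 3.59e-05), which left it below the dim limit. Mcm5 read 9.89 and 9.55 and then 6.32 and 5.73, a difference of -3.70 (SE 0.20). Mcm3 read 8.96 and 8.77 and then 6.09 and 5.33, a difference of -3.16 (SE 0.22). In each of these the 2 groups lay several units apart, and the postpartum arrays lay between them, for Mcm6 at 7.83 and 7.78. Mcm4 fell by 2.75 (SE 0.15), Mcm2 by 1.79 (SE 0.11) and Mcm7 by 1.61 (SE 0.11). Mcm5 and Mcm3 differed by -2.16 and -1.60 with the mean of all their probe sets.

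The fall was uneven across the machinery. The 4 genes of DNA polymerase alpha-primase, which lays the first primers, all fell, by between 0.57 for Pola2 and 2.50 for Prim1. The 3 genes of the single-strand binding protein RPA all fell, with Rpa2 the most at -2.08 (SE 0.17). Of 5 subunits of DNA polymerases delta and epsilon 4 fell, and of 6 genes of the clamp and its loader 4 fell, among them Pcna by 1.59 (SE 0.14) from 11.60 and 11.27 to 9.77 and 9.93. By contrast 1 of 6 origin recognition genes passed the test. That was Orc6, at -1.42, while Orc1 to Orc5 lay between -0.19 and 0.37. Of the helicase partners Cdc45 and GINS, 2 of 5 fell. The licensing factor Cdt1 fell by 1.67 and its inhibitor geminin (Gmnn) by 1.24. The origin licensing gene Cdc6 fell by 1.76 but was dim in both groups. Cdc45 had a difference of 0.30 (SE 0.11) and did not pass. Pola2 differed by -0.09 with the mean of all its probe sets and did not pass.

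The promoters of 3 helicase genes are shown because the group moved together and because E2F binding letters are known from such promoters. Each runs from 250 bases before to 50 after the RefSeq start of the gene, build GRCm38.p6, 5′ to 3′ on the gene's strand. Capitals mark matches on either strand to any of the E2F-type motifs TTTCCCGC, TTTCGCGC, TTTGCCGC and TTTGGCGC, and matches on opposite strands can overlap and then appear as 1 longer run. The regions are chr1:20820263-20820562 (minus strand) for Mcm3, chr8:75109259-75109558 (plus strand) for Mcm5 and chr1:128359656-128359955 (minus strand) for Mcm6.
Mcm3: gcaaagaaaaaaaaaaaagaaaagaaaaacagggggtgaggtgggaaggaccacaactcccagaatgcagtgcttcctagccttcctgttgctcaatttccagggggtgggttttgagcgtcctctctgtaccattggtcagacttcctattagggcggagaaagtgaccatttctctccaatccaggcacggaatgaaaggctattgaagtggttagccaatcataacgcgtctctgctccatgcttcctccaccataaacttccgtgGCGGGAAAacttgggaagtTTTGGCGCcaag
Mcm5: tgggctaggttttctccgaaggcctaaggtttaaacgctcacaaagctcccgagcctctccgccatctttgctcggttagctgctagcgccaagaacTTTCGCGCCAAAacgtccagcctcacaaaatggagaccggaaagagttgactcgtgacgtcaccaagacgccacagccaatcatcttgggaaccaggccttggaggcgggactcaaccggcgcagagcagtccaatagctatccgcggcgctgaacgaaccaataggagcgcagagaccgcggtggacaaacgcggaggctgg
Mcm6: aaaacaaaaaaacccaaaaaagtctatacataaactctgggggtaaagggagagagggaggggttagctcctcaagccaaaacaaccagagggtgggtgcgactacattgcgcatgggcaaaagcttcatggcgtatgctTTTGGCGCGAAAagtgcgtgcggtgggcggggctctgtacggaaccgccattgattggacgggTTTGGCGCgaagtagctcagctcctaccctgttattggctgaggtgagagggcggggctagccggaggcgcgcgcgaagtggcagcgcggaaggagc

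At least 1 such match lay in the promoter of 17 of the 41 replication genes found in the RefSeq promoter table, 41.5%, against 2.6% of all 27025 genes there and 2.26% of all 32851 promoters of this length. Among replication genes that fell the share was 12 of 28, and among those that did not pass the test it was 5 of 13. For mitosis genes it was 3 of 42. These last 3 shares are 42.9%, 38.5% and 7.14%. A match describes the letters only.

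Genes that act with replication fell more often than they rose. Chek1, the checkpoint kinase that guards stalled forks, fell by 3.78 (SE 0.24) from 8.01 and 7.24 to 3.63 and 4.07. Fignl1, a recombination gene, fell by 3.46, although its other, dim probe set rose by 0.44. Of 61 DNA repair genes measured, 16 fell and 3 rose, with a median of -0.15. Rises became 0, 0, 0 and 0 and falls 4, 9, 12 and 10 without pre-pregnancy replicates 1 and 2 and pregnancy replicates 1 and 2 in turn. Besides Chek1 and Fignl1 they included Rad51ap1 at -2.10 and Brca1 at -1.46, partners in homologous recombination, and the uracil glycosylase Ung at -1.32. The 3 that rose were Ercc2, Rad51d and Ddb1, by 0.39 to 0.52, and all 3 failed the test without any 1 of the 4 compared arrays. Chek1, Fignl1, Rad51ap1 and Brca1 differed by -1.57, -1.51, -0.98 and -0.52 with the mean of all their probe sets. Rad51d differed by 0.315 with that mean and did not pass.

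Of 50 genes of nucleotide synthesis and one-carbon metabolism, 15 fell and 2 rose (median -0.27). Falls became 2, 8, 11 and 8 and rises 0, 0, 2 and 1 without pre-pregnancy replicates 1 and 2 and pregnancy replicates 1 and 2 in turn. The members nearest to DNA synthesis were among them: both ribonucleotide reductase subunits, Rrm1 by 1.24 (SE 0.11) and Rrm2 by 1.01 (SE 0.24), the dUTPase gene Dut by 1.24, deoxycytidine kinase Dck by 1.19 and thymidine kinase Tk1 by 0.93. The purine salvage enzyme Aprt rose by 1.02 (SE 0.23), the other rise being Aldh1l2, dim in both groups.

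Chromatin genes were split. Of 76 chromatin and DNA methylation genes, 17 fell and 7 rose (median -0.12). Rises numbered 0, 1, 4 and 4 and falls 3, 8, 11 and 9 without pre-pregnancy replicates 1 and 2 and pregnancy replicates 1 and 2 in turn. The maintenance side of DNA methylation was lower: Uhrf1, which guides the enzyme to newly copied DNA, fell by 2.78 (SE 0.18) from 7.16 and 7.03 to 4.61 and 4.02. Dnmt1, the maintenance methyltransferase itself, fell by 0.96 (SE 0.18). Dnmt3a, which sets new methylation, rose by 0.68 (SE 0.12). Ezh2 and Suz12 of the Polycomb repressive complex fell by 0.89 and 0.61, while the histone deacetylase Hdac11 rose by 0.84 and the demethylase Kdm4a by 0.79. Uhrf1 and Kdm4a differed by -1.85 and 0.42 with the mean of all their probe sets.

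Of 51 nuclear pore and transport genes 8 fell and 1 rose (median -0.20). Rises became 0, 0, 1 and 0 and falls 1, 4, 8 and 3 without pre-pregnancy replicates 1 and 2 and pregnancy replicates 1 and 2 in turn. Nup160, a scaffold nucleoporin, was the furthest, falling by 1.69 (SE 0.14) from 8.06 and 7.83 to 6.37 and 6.14, and its scaffold partners Nup107, Nup37 and Nup43 fell by 0.61, 0.59 and 0.52. The rise was Tnpo3, a nuclear import carrier, at 0.63. Nup160 differed by -0.89 with the mean of all its probe sets. Tnpo3 differed by 0.22 with that mean and did not pass.

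Fewer mitosis genes than replication genes passed, but the mitosis list was dimmer from the start. Its median level before pregnancy was 5.60 and 5.50, near the dim limit of 5.52, against 8.16 and 7.92 for the replication list. Over all arrays 29 of the 49 mitosis genes lay above that limit, against 46 of the 50 replication factors. Falls of the dim members could hardly show, so the 2 lists are not compared on equal terms. Of 49 genes of mitosis and cytokinesis 5 fell and 0 rose (median -0.03). Those 5 were Cenpk, Smc2, Spc24, Mad2l1 and the dim gene Kif20b, and the first 4 fell by 1.37 to 1.92. Smc2, a condensin subunit, read 8.55 and 8.03 before pregnancy and 7.03 and 6.05 in pregnancy, and even within the fall the second pregnancy liver was the lower. Mki67, the classic proliferation marker, had a difference of 0.01 (SE 0.32), Top2a -1.10 (SE 0.30) and Cdk1 -0.90 (SE 0.37), none past the threshold. Cenpk and Smc2 differed by -0.66 and -0.95 with the mean of all their probe sets.

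The 2 pregnancy livers differed from each other in this list. Replicate 1 was higher than replicate 2 in 45 of 49 mitosis genes, by a median of 0.93, while the replication list differed by a median of 0.12 between them and all genes by 0.02. Cdc20, an activator of the anaphase-promoting complex, read 6.83 and 6.81 before pregnancy and 8.35 and 5.96 in pregnancy, so that 1 pregnant liver lay above both and the other below both. Falls became 0, 3, 11 and 3 and rises 0, 0, 0 and 1 without pre-pregnancy replicates 1 and 2 and pregnancy replicates 1 and 2 in turn. The postpartum livers had higher list medians, 6.22 and 6.94, than the pre-pregnancy livers, 5.60 and 5.50. That is a description, since it shares the pre-pregnancy arrays.

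**Figure D3:**
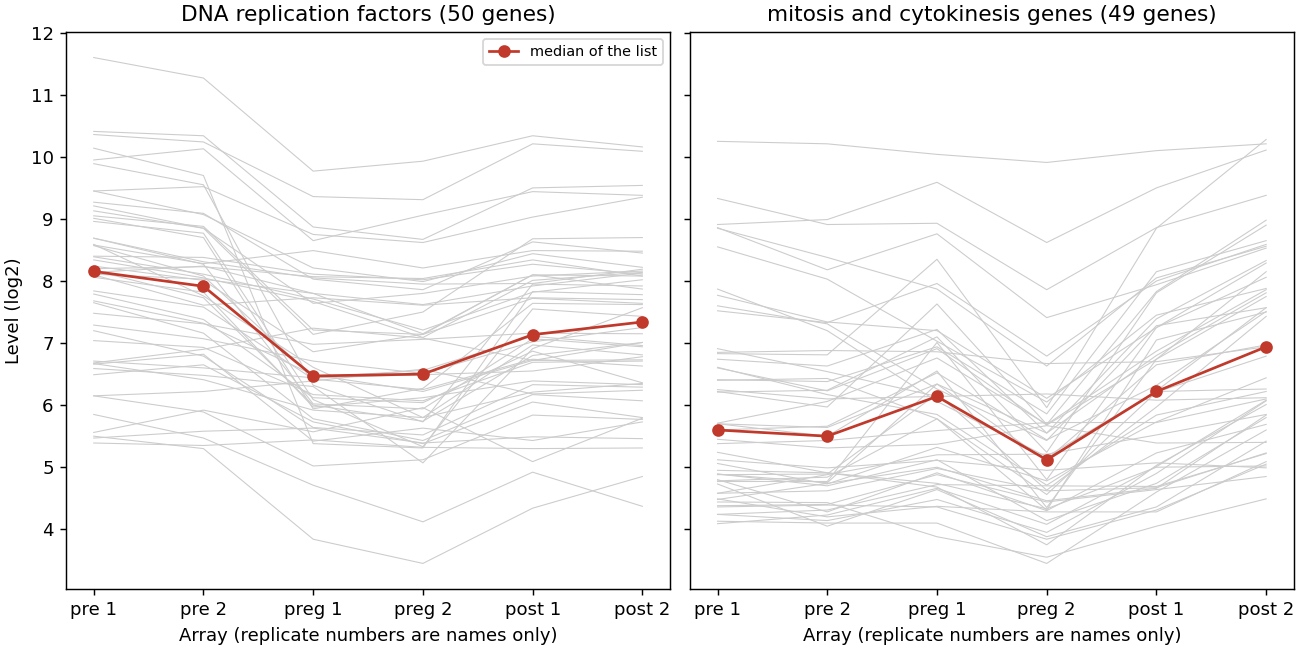
Level (log2, vertical axis) on each of the 6 arrays (horizontal axis) of 50 DNA replication factors (left) and 49 mitosis and cytokinesis genes (right), with a grey line a gene and the list's median in red. The replication median is 8.16 and 7.92 before pregnancy and 6.47 and 6.50 in pregnancy, whereas the mitosis median is 6.14 on 1 pregnancy array and 5.12 on the other.

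Turning to secreted proteins, more clotting genes rose than fell. Clotting runs from tissue factor and factor VII and from the contact factors XII and XI to factor X, thrombin (from F2) and fibrin, with protein S (from Pros1) as a brake. Of 35 coagulation and fibrinolysis genes measured, 7 rose and 1 fell, with a median of 0.21, where 5.46% and 8.25% of all genes did so. In this list 28 genes were of at least median brightness, and in the brightest bin 304 of 3639 genes rose and 455 fell. The share called in either direction, 22.9%, was near the 20.9% of that bin. Rises numbered 3, 5, 6 and 4 and falls 0, 1, 3 and 0 without pre-pregnancy replicates 1 and 2 and pregnancy replicates 1 and 2 in turn.

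F7 read 11.54 and 11.60 before pregnancy and 12.87 and 13.28 in pregnancy, a rise of 1.51 (SE 0.15, adjusted p = 0.00195). F11 read 10.56 and 10.59 and then 11.81 and 11.81, a rise of 1.24 (SE 0.10, adjusted p = 0.000735). F10 read 12.34 and 12.23 and then 13.22 and 13.43, a rise of 1.04 (SE 0.11, adjusted p = 0.00255). The calls of F7, F11 and F10 held in 6 of 6 left-out fits. F5, the cofactor of factor X, rose by 0.61, and Serpinf2, the inhibitor of plasmin, by 0.74. F12 and F2 rose by 0.40 and 0.38. The gene that fell was Pros1, by 0.55 (SE 0.13), with its call held in 3 of 6.

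Complement genes changed in both directions. Of 31 complement genes 4 fell and 3 rose (median 0.01). Rises became 0, 1, 3 and 1 and falls 2, 3, 3 and 3 without pre-pregnancy replicates 1 and 2 and pregnancy replicates 1 and 2 in turn. The largest differences were those of C9 and C8b, 2 genes of the late, pore-forming components. C9, which forms the ring of the membrane attack complex, read 13.24 and 13.24 before pregnancy and 9.78 and 9.14 in pregnancy, a difference of -3.78 (SE 0.31, adjusted p = 0.000905). C8b, which encodes a chain of the component that C9 joins, read 11.23 and 11.30 and then 9.56 and 9.15, a difference of -1.91 (SE 0.20). Postpartum the 2 genes read 10.91 and 11.87 and 9.33 and 9.86, so both were below their levels before pregnancy there as well. Cd55, a membrane regulator that breaks up convertases, fell by 1.23, and the protease C1s1 by 0.53. Cpn1, the carboxypeptidase that trims anaphylatoxins, rose by 0.75 (SE 0.10), the membrane attack inhibitor Cd59a by 0.53 and the lectin pathway protease Masp1 by 0.49. Cpn1 differed by 0.49 with the mean of all its probe sets. Cd59a and Masp1 differed by 0.32 and 0.18 with that mean and did not pass.

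**Figure D4:**
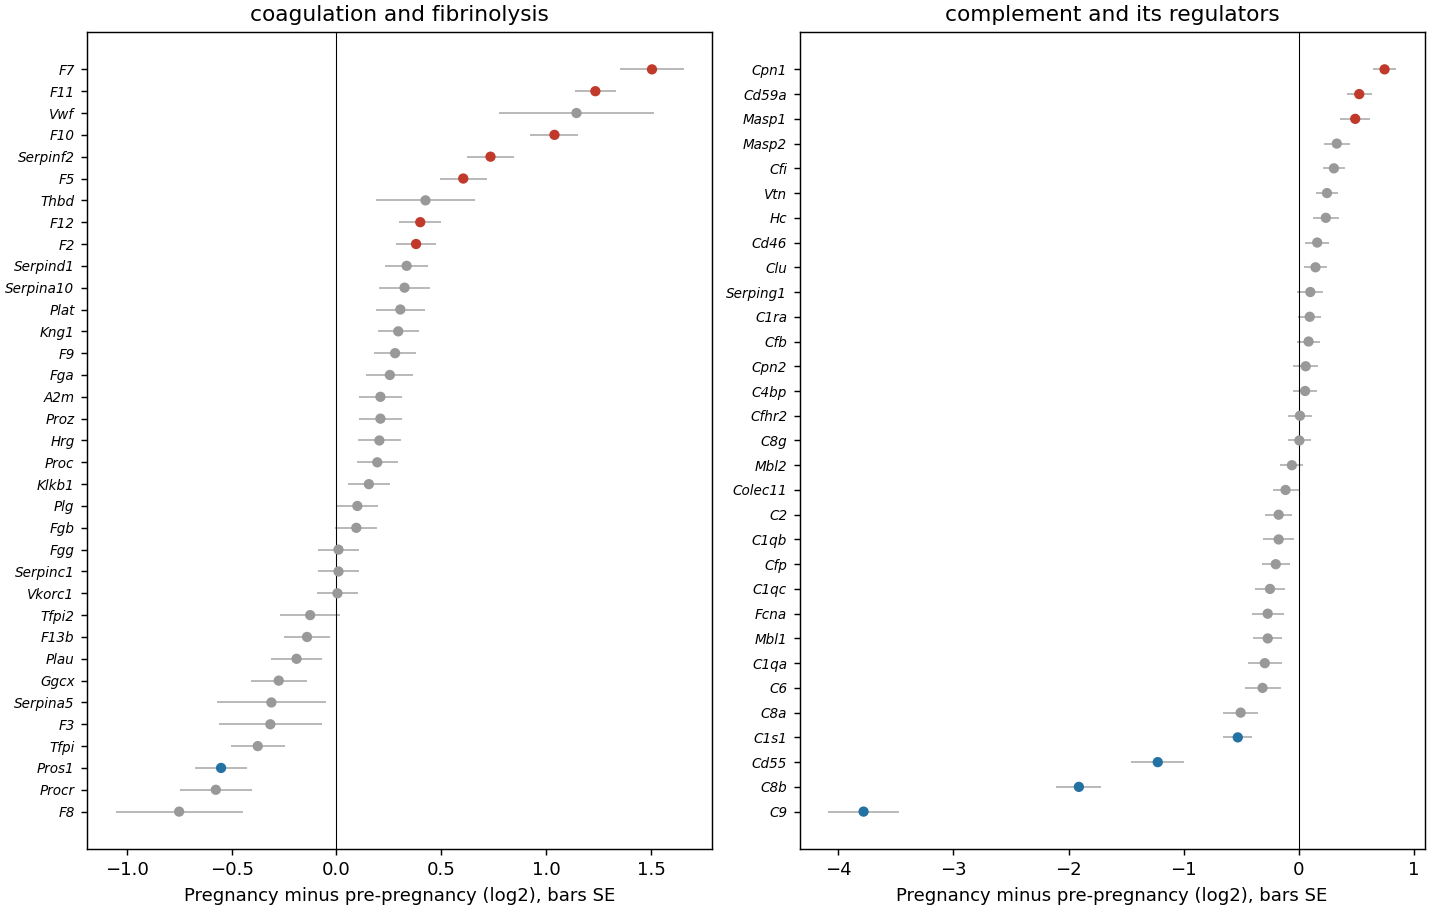
Difference between pregnancy and pre-pregnancy liver (log2, horizontal axis, bars show SE) for 35 coagulation genes (left) and 31 complement genes (right), with genes that rose in red, those that fell in blue and the others in grey. F7 and F11 lie highest on the left, and C9 and C8b stand apart below the rest on the right.

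Of 29 genes on a list of protease inhibitors and hormone carriers 7 rose and 5 fell (median 0.08). Among the 5 falls was Ctsc, a lysosomal protease that is neither and is counted again with the lysosomal genes. Falls became 1, 1, 4 and 3 and rises 2, 3, 5 and 3 without pre-pregnancy replicates 1 and 2 and pregnancy replicates 1 and 2 in turn. Serpina6, which encodes corticosteroid-binding globulin, the plasma carrier of glucocorticoids, read 12.49 and 12.37 before pregnancy and 14.44 and 14.53 in pregnancy, a rise of 2.06 (SE 0.20, adjusted p = 0.00193). Its call held in 6 of 6 left-out fits, and postpartum it read 13.47 and 12.77. Serpina3n, an acute phase antitrypsin relative, rose by 1.02, and 3 inter-alpha-trypsin inhibitor heavy chains rose together, Itih4 by 0.69, Itih1 by 0.48 and Itih3 by 0.41. Mug1, a murine alpha-macroglobulin, fell by 1.22, and Serpina4-ps1, annotated as a pseudogene, fell by 2.90. Serpinb1a, an inhibitor of neutrophil elastase, fell by 1.17, and the collagen chaperone Serpinh1 by 0.57. Of 3 genes of major urinary proteins, pheromone carriers that are near-identical in sequence, 2 fell, Mup10 by 0.94 and Mup3 by 0.60, and without either pre-pregnancy array or without pregnancy replicate 2 it was 1. Serpinb1a and Serpinh1 differed by -0.73 and -0.95 with the mean of all their probe sets.

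Of 30 liver-secreted hormones and growth factors 7 rose and 3 fell (median 0.12). Rises numbered 2, 3, 5 and 5 and falls 0, 0, 2 and 2 without pre-pregnancy replicates 1 and 2 and pregnancy replicates 1 and 2 in turn. Fgf21, the fasting-induced hormone, read 6.39 and 6.48 before pregnancy and 8.20 and 7.81 during it, against 6.29 and 6.25 postpartum, a rise of 1.57 (SE 0.14, adjusted p = 0.00128). The 2 pregnancy livers were the only high ones. Enho, which encodes the peptide adropin, rose by 0.83 (SE 0.11), Fetub, an inhibitor of egg-coat proteolysis, by 0.68 (SE 0.11), angiotensinogen (Agt) by 0.57 and Igfbp2, an IGF binding protein, by 0.55. Lect2, a hepatokine, fell by 0.74 (SE 0.13). Tgfa, a growth factor of the EGF receptor, fell by 0.63 on its brightest probe set, and Angptl6 by 0.38, with calls held in 1 and 0 of 6. The other probe sets of Tgfa read 0.21 to 0.49 higher in pregnancy, the opposite way, and none passed. Igf1 read 13.28 and 13.28 before and 13 and 12.88 in pregnancy, a difference of -0.34 (SE 0.10, adjusted p = 0.0621) that did not pass on this probe set. Its 3 dimmer probe sets all fell, by 0.49 to 0.89. Enho differed by 0.54 with the mean of all its probe sets. Tgfa differed by 0.02 with that mean and did not pass.

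Of 17 genes of hepatocyte identity 3 rose and 0 fell (median 0.10). Rises became 0, 1, 3 and 1 and falls 0, 0, 1 and 1 without pre-pregnancy replicates 1 and 2 and pregnancy replicates 1 and 2 in turn. The 3 were Apob, the protein of very low density lipoprotein, at 0.58 (SE 0.10), and both asialoglycoprotein receptor subunits, Asgr2 at 0.82 and Asgr1 at 0.40. Transthyretin (Ttr) differed by -0.10 (SE 0.10) and the transcription factor Hnf4a by 0.11 (SE 0.10), and neither passed. Of 3 other Hnf4a probe sets, which read -0.52 to 0.24, 1 fell. Apob differed by 0.27 with the mean of all its probe sets and did not pass.

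Hormone and growth factor receptors were examined because pregnancy changes their ligands. Of 33 such receptors 4 rose and 3 fell (median -0.07). Falls became 1, 3, 4 and 2 and rises 0, 1, 4 and 2 without pre-pregnancy replicates 1 and 2 and pregnancy replicates 1 and 2 in turn. Esr1, the estrogen receptor alpha, read 12.18 and 12.02 before pregnancy and 10.39 and 11.09 in pregnancy, a difference of -1.36 (SE 0.21, adjusted p = 0.00749). Nr3c1, the glucocorticoid receptor, read 10.96 and 10.66 and then 10.17 and 10.01, a difference of -0.72 (SE 0.15, adjusted p = 0.0198). The calls of Esr1 and Nr3c1 held in 5 and 4 of 6 left-out fits. Nr3c1 differed by -0.48 with the mean of all its probe sets.

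Cytokine receptors diverged. Lifr, the receptor of leukemia inhibitory factor, read 12.28 and 12.60 before and 13.63 and 13.96 in pregnancy, a rise of 1.36 (SE 0.19). Il6ra, the interleukin-6 receptor, rose by 0.89 (SE 0.14), whereas Il1rap, the shared chain of interleukin-1 signalling, fell by 1.24 (SE 0.11) from 11.94 and 11.90 to 10.78 and 10.59. Igf2r, which clears IGF2, rose by 0.72, and Vdr, dim in both groups, passed at 0.38. The growth hormone receptor Ghr read 12.94 and 12.98 before pregnancy and 12.96 and 13.74 in pregnancy, a difference of 0.39 (SE 0.23) that did not pass. Of its 2 dimmer probe sets, at 0.34 and 1.23, 1 rose. The prolactin receptor had no probe set with a single symbol and was not analysed here. Il1rap differed by -0.37 with the mean of all its probe sets. Lifr and Vdr differed by 0.44 and 0.19 with that mean and did not pass.

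Of 25 JAK-STAT genes, which relay growth hormone, prolactin and cytokine signals, 1 rose and 3 fell (median -0.04). Rises numbered 0, 0, 2 and 0 and falls 0, 1, 0 and 0 without pre-pregnancy replicates 1 and 2 and pregnancy replicates 1 and 2 in turn. Stat3 rose by 0.62 (SE 0.11), and Socs6, Stat2 and Jak1 fell by 0.61, 0.55 and 0.47. Their calls held in 0 to 3 of 6 left-out fits. The feedback genes Socs2 and Cish, targets of growth hormone signalling, had differences of 0.24 (SE 0.31) and -0.05 (SE 0.46) and did not pass. Cish read 8.81 and 8.12 before pregnancy and 7.69 and 9.15 in pregnancy, so its pregnancy arrays enclosed both others. Stat2 and Jak1 differed by -0.44 and -0.34 with the mean of all their probe sets and did not pass.

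Of 74 genes of the Wnt, Notch, Hippo and TGF-beta pathways 11 fell and 4 rose (median 0.00). Rises became 1, 1, 3 and 3 and falls 0, 4, 8 and 5 without pre-pregnancy replicates 1 and 2 and pregnancy replicates 1 and 2 in turn. Those that fell included the bone morphogenetic protein (BMP) ligands Bmp6 and Bmp2 by 0.82 and 0.65, the receptors Bmpr1a and Acvr1 by 0.47 and 0.41, and the Hippo pathway genes Amotl2 and Lats2 by 0.64 and 0.60. Id3, an inhibitor of helix-loop-helix factors, read 10.53 and 10.25 before pregnancy and 8.55 and 9.12 in pregnancy, a difference of -1.56 (SE 0.21). Smad7 read 8.60 and 7.90 and then 7.27 and 6.86, a difference of -1.19 (SE 0.23). Bambi fell by 0.89, Id1 by 0.70 and Id2 by 0.42. The number of BMP genes among the 74 was not counted. The rises included Sfrp1, a Wnt antagonist, from 5.79 and 6.08 to 6.88 and 7.10. Id2 differed by -0.72 with the mean of all its probe sets. Bmpr1a, Acvr1, Lats2 and Sfrp1 differed by -0.29, -0.32, -0.19 and 0.34 with that mean and did not pass.

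In the liver BMP6 made by endothelial cells drives hepcidin, the hormone that limits iron uptake. Of 29 iron and heme genes 5 rose and 5 fell (median 0.09). Falls became 1, 2, 3 and 3 and rises 2, 3, 5 and 3 without pre-pregnancy replicates 1 and 2 and pregnancy replicates 1 and 2 in turn. Those that fell included Bmp6, Smad7 and Id1, named above, together with the iron regulatory proteins Ireb2 and Aco1, by 0.54 and 0.48. Hamp2, a hepcidin gene close in sequence to Hamp, read 12.99 and 12.78 before and 13.95 and 14.22 in pregnancy, a rise of 1.20 (SE 0.14, adjusted p = 0.00314). No value of Hamp itself is given here, so the rise of Hamp2 does not show how Hamp moved. The lowest difference on the list, -1.295, belonged to a member that did not pass. Hmox1, which breaks down heme, rose by 0.85 (SE 0.12), and Cp, the ferroxidase ceruloplasmin, by 0.72 (SE 0.10). Ppox and Tfr2 rose by 0.48 and 0.38, with calls held in 1 and 0 of 6. Cp differed by 0.42 with the mean of all its probe sets. Ppox differed by 0.22 with that mean and did not pass.

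The metallothioneins, small proteins that bind zinc and copper, rose together. Mt1 read 12.85 and 12.83 before pregnancy and 13.87 and 14.05 in pregnancy, then 12.76 and 12.54 postpartum, a rise of 1.12 (SE 0.12, adjusted p = 0.00243). Mt2 read 12.07 and 11.92, then 13.05 and 13.03 and postpartum 10.55 and 9.94, a rise of 1.05 (SE 0.19, adjusted p = 0.0122) whose call held in 3 of 6. Mt1 differed by 1.72 with the mean of all its probe sets. Both genes were highest in the pregnancy livers. The Mt1 and Mt2 promoters are shown because their metal response elements, bound by the zinc sensor MTF1, are textbook examples. Capitals mark matches on either strand to TGCACNC or TGCGCNC, where N is any base. The regions, in GRCm38.p6 from RefSeq, are chr8:94178839-94179138 (plus strand) for Mt1 and chr8:94172368-94172667 (plus strand) for Mt2.
Mt1: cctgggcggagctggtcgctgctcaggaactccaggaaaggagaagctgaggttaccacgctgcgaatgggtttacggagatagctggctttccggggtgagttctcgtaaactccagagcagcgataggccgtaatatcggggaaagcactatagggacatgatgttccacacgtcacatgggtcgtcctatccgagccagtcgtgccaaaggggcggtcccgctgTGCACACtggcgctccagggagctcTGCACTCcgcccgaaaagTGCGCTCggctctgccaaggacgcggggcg
Mt2: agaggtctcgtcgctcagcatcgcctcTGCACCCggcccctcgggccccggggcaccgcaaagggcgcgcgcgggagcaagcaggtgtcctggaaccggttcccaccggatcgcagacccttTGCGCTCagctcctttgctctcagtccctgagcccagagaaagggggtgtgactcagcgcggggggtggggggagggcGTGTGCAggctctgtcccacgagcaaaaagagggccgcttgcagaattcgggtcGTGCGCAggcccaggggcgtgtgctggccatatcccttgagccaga

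There were 3 such matches in the Mt1 promoter and 4 in that of Mt2, none overlapping, and at least 3 were present in 1.5% of all genes' promoters. Mt1 and Mt2 belong to a list of 65 genes, mainly ion channels, pumps and carbonic anhydrases, of which 8 fell and 5 rose (median 0.02). Rises numbered 1, 1, 5 and 4 and falls 1, 4, 7 and 4 without pre-pregnancy replicates 1 and 2 and pregnancy replicates 1 and 2 in turn. Among those that fell were Clcn2, a chloride channel, by 1.03 (SE 0.14), and the carbonic anhydrase Car1 by 1.19 (SE 0.14). The rises included P2rx4, an ATP-gated channel, by 0.71 and the phosphate carrier Slc34a2 by 0.66. P2rx4 differed by 0.32 with the mean of all its probe sets.

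More lysosomal and autophagy genes rose than fell. Of 52 measured, 11 rose and 4 fell (median 0.12), against 5.46% and 8.25% of all genes. In either direction 28.8% were called, against 20.9% of the brightest bin, where 304 of 3639 genes rose and 455 fell. Rises became 5, 8, 9 and 11 and falls 0, 0, 2 and 0 without pre-pregnancy replicates 1 and 2 and pregnancy replicates 1 and 2 in turn. The rises combined hydrolases with autophagy genes. Gusb, the lysosomal beta-glucuronidase, read 8.76 and 8.72 before and 10.15 and 10.28 in pregnancy, a rise of 1.48 (SE 0.15). Hexa, a hexosaminidase chain, read 9.65 and 9.54 and then 10.86 and 10.90, a rise of 1.29 (SE 0.12). Ulk1, the kinase that starts autophagy, read 9.20 and 9.23 and then 10.54 and 10.67, a rise of 1.39 (SE 0.13). The calls of these 3 held in 6 of 6 left-out fits, and the replicates of both groups lay close together. The cathepsins Ctsz and Ctsa rose by 1.18 and 1.14, and Map1lc3a and Map1lc3b, which coat autophagosomes, by 0.72 and 0.55. The 4 that fell were Ctsc by 0.81 and Laptm4a, Mcoln1 and Atg3 by 0.41 to 0.44, and the last 3 failed in all left-out fits. Ctsa, Ctsc and Atg3 differed by 0.61, -1.61 and -0.63 with the mean of all their probe sets. Map1lc3b differed by 0.36 with that mean and did not pass.

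Protein folding genes in the endoplasmic reticulum (ER) changed in both directions. Of 50 ER chaperone and unfolded protein response genes 8 fell and 7 rose (median 0.02). Falls became 1, 2, 3 and 12 and rises 2, 2, 9 and 5 without pre-pregnancy replicates 1 and 2 and pregnancy replicates 1 and 2 in turn. Of the rises, Atf5, a stress transcription factor, read 10.63 and 10.98 before and 12.63 and 12.53 in pregnancy, a rise of 1.78 (SE 0.13). Ddit4, an inhibitor of the growth kinase mTORC1, rose by 1.39 (SE 0.18), Fkbp11, a prolyl isomerase of the ER, by 1.25 (SE 0.28), and Ddit3, a transcription factor, by 0.76 (SE 0.15). The falls included Creld2 by 1.62, Selenok by 1.13, Fkbp14 by 0.98, Manf by 0.87 and Pdia4 by 0.59. The pregnancy livers differed here too: replicate 2 was higher in 42 of 50 genes, by a median of 0.30, and Creld2 read 9.28 and 10.44 in the 2 of them. Fkbp11 and Fkbp14 differed by 0.69 and -0.42 with the mean of all their probe sets. Ddit3 and Pdia4 differed by 0.49 and -0.16 with that mean and did not pass.

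Of 63 genes of ER entry and transport to the Golgi 7 fell and 3 rose (median -0.06), and replicate 2 was the higher pregnancy liver in 54 of 63. Rises numbered 0, 0, 2 and 0 and falls 1, 2, 3 and 7 without pre-pregnancy replicates 1 and 2 and pregnancy replicates 1 and 2 in turn. Mia2, a cargo receptor for large secreted particles, fell by 1.30 (SE 0.14). Rpn1 and Rpn2, partner subunits of the oligosaccharyltransferase, moved apart, Rpn1 by -0.86 and Rpn2 by 0.51. Surf4 passed as higher, but its other probe sets read -0.56 to 0.39 and 1 of them fell. Of 23 heat shock genes, mainly cytosolic, 4 fell and 1 rose (median -0.20), with the mitochondrial Hspe1 among those that fell. Rises became 0, 0, 0 and 0 and falls 0, 0, 2 and 2 without pre-pregnancy replicates 1 and 2 and pregnancy replicates 1 and 2 in turn. Those that fell included Hspa4l by 1.05 and Hsp90aa1 by 0.58. Rpn1 differed by -0.55 with the mean of all its probe sets.

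In 5 lists of the basic machinery of protein and energy metabolism 2.13% to 11.4% of the genes passed. That compares with 13.7% of all genes and with 20.4% and 20.9% of the 2 brightest bins, the nearer background for these mostly bright genes. Of 47 cytosolic ribosomal protein genes 1 fell (Rps28, -0.40), of 65 ribosome biogenesis genes 4 and of 43 proteasome genes 2, and none rose in these 3 lists. Of 76 mitochondrial ribosomal protein genes 8 fell and 0 rose (median -0.16), led by Mrpl18 at -0.93 (SE 0.12). Of 79 oxidative phosphorylation genes 8 fell and 1 rose (median -0.20), with Uqcrc2 of complex III at -0.68 (SE 0.11) and Ndufs1 of complex I at -0.64 (SE 0.11). Both pregnancy arrays lay below both pre-pregnancy arrays for 41 of these 76 and 50 of these 79 genes, and above them for 7 and 10. Over all genes 26.0% lay below and 33.6% above, so small differences in these 2 lists were mostly downward. In the order given, without pre-pregnancy replicate 1 the 5 lists had 0, 0, 0, 1 and 0 that fell. Leaving out pre-pregnancy replicate 2 gave 0, 2, 0, 1 and 2, leaving out pregnancy replicate 1 gave 0, 4, 1, 4 and 3, and leaving out pregnancy replicate 2 gave 0, 1, 1, 2 and 2. The 1 rise, in oxidative phosphorylation, was lost each time. Uqcrc2 differed by -0.44 with the mean of all its probe sets. Rps28 differed by -0.12 with that mean and did not pass.

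**Figure D5:**
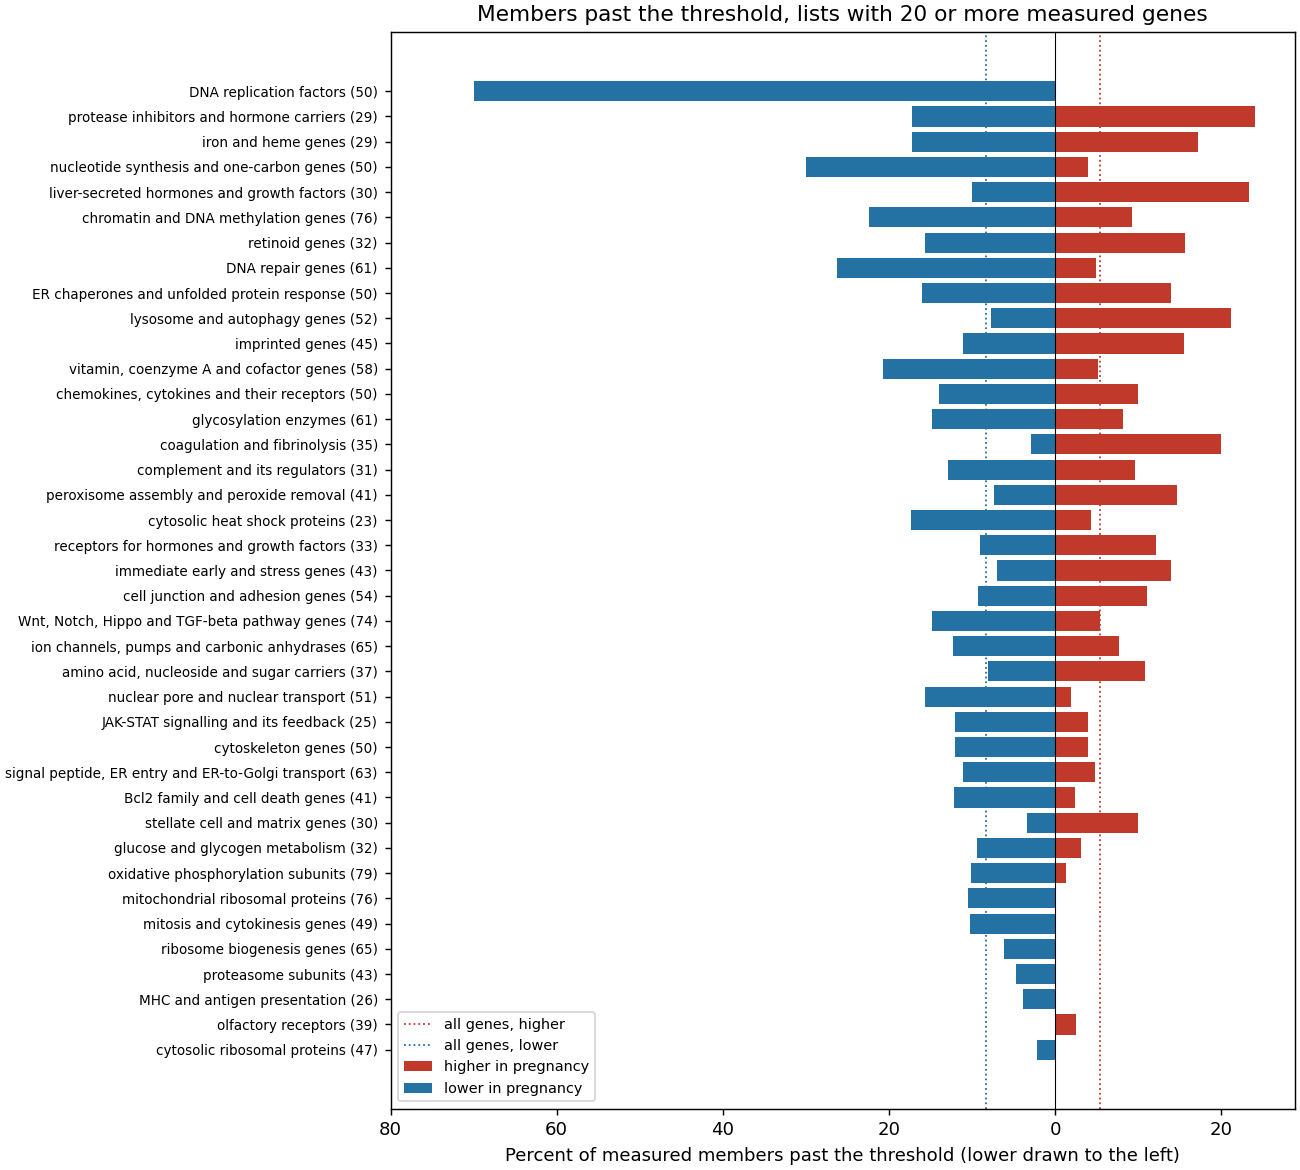
Percent of the measured members of each gene list that rose (red, to the right) or fell (blue, to the left), for lists with at least 20 measured genes, numbers of genes in brackets. Dotted lines mark all genes, 5.46% higher and 8.25% lower. DNA replication factors reach furthest, and cytosolic ribosomal proteins stand lowest.

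Genes of cofactor metabolism changed in both directions. Of 58 vitamin, coenzyme A and cofactor genes 12 fell and 3 rose (median -0.11). Falls became 4, 4, 10 and 8 and rises 1, 3, 3 and 2 without pre-pregnancy replicates 1 and 2 and pregnancy replicates 1 and 2 in turn. Coenzyme A genes moved in several directions. Vnn1 and Vnn3, pantetheinases that recycle the vitamin part of coenzyme A, rose by 2.23 (SE 0.28) and 1.53 (SE 0.10). Vnn1 read 9.78 and 9.84 before, 12.54 and 11.54 in pregnancy and 8.97 and 9.30 postpartum. Nudt7, a peroxisomal enzyme that cleaves coenzyme A, fell by 1.91 (SE 0.14) from 13.18 and 13.34 to 11.23 and 11.47, and Pank3, a kinase of its synthesis, fell by 1.03. On the nicotinamide side, Nampt, which makes NAD from nicotinamide, fell by 1.69 (SE 0.17) from 11.03 and 10.80 to 8.99 and 9.47, and Nnmt, which methylates nicotinamide, by 1.26. The tetrahydrobiopterin enzyme Gch1 and its regulator Gchfr fell by 0.67 and 0.75.

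Of 32 retinoid genes 5 rose and 5 fell (median 0.07). Rises numbered 2, 3, 5 and 5 and falls 0, 2, 4 and 3 without pre-pregnancy replicates 1 and 2 and pregnancy replicates 1 and 2 in turn. Bco1, which splits beta-carotene, rose by 1.42 (SE 0.17) from 7.60 and 7.53 to 8.72 and 9.25. Lrat, which esterifies retinol for storage in stellate cells, fell by 1.47 (SE 0.31), its pregnancy arrays reading 8.64 and 7.51. Rarres2, the gene of chemerin, fell by 1.32 (SE 0.16) from 13.15 and 13.10 to 12.04 and 11.57. Rdh11 fell by 1.31 and Rdh9 rose by 0.99.

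Of 32 genes of glucose and glycogen metabolism 3 fell and 1 rose (median -0.04). Rises became 0, 1, 2 and 1 and falls 0, 1, 4 and 1 without pre-pregnancy replicates 1 and 2 and pregnancy replicates 1 and 2 in turn. Ppp1r3b, which targets a phosphatase to glycogen, read 12.10 and 11.68 before pregnancy and 10.64 and 10.92 in pregnancy, a difference of -1.11 (SE 0.18). The insulin receptor substrate Irs2 rose by 1.13 (SE 0.22), and the fructokinase Khk and the glycolytic Pgk1 fell by 0.61 and 0.45. Of 37 carriers of amino acids, nucleosides and sugars 4 rose and 3 fell (median 0.14). Falls became 0, 0, 3 and 3 and rises 2, 2, 10 and 5 without pre-pregnancy replicates 1 and 2 and pregnancy replicates 1 and 2 in turn. Slc3a1 and Slc7a7, subunits of different carriers of cationic amino acids, rose by 1.31 (SE 0.15) and 1.40 (SE 0.23), Slc1a4 by 0.97, and Slc38a4 and the taurine carrier Slc6a6 fell by 0.92 and 0.68. Pgk1 and Slc6a6 differed by -0.31 and -0.27 with the mean of all their probe sets and did not pass.

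Of 41 peroxisome and peroxide removal genes 6 rose and 3 fell (median -0.10). Rises numbered 2, 2, 4 and 3 and falls 0, 1, 1 and 0 without pre-pregnancy replicates 1 and 2 and pregnancy replicates 1 and 2 in turn. Gpx3 aside, the assembly factor Pex14 rose by 0.90 (SE 0.11), while the cytosolic peroxidase Gpx1 fell by 0.56 (SE 0.12). Of 61 glycosylation enzymes 9 fell and 5 rose (median -0.05). Rises became 0, 2, 5 and 4 and falls 1, 3, 5 and 7 without pre-pregnancy replicates 1 and 2 and pregnancy replicates 1 and 2 in turn. Gmds, the first enzyme of GDP-fucose synthesis, fell by 1.34 (SE 0.15), and C1galt1c1, a chaperone for O-glycan synthesis, by 0.99 (SE 0.12). The 5 that rose included the sialyltransferases St3gal3 by 0.82, St6galnac4 by 0.71 and St6galnac2 by 0.91, the last 2 from dim levels. Gmds and St6galnac2 differed by -0.75 and 0.55 with the mean of all their probe sets. C1galt1c1 differed by -0.32 with that mean and did not pass.

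Of 45 imprinted genes 7 rose and 5 fell (median 0.02). Falls became 1, 5, 5 and 4 and rises 3, 4, 6 and 5 without pre-pregnancy replicates 1 and 2 and pregnancy replicates 1 and 2 in turn. Igf2, a fetal growth factor, read 5.63 and 5.79 before pregnancy and 6.84 and 7.63 during it, against 6.64 and 6.91 postpartum, a rise of 1.53 (SE 0.24). Its clearance receptor Igf2r rose by 0.72, and Airn, a noncoding RNA that overlaps Igf2r, by 0.92. The strand that the probe sets read was not checked here. Rasgrf1 rose by 1.12 and Phlda2, from a dim level, by 1.22. Grb10, which restrains insulin signalling, fell by 0.90 (SE 0.12) and Plagl1, a zinc finger growth regulator, by 1.01 (SE 0.15), each on its brightest probe set alone. The other 2 probe sets read 0.03 to 0.27 for Grb10 and 0.05 to 0.34 for Plagl1. Gatm, the first enzyme of creatine synthesis, fell by 1.30 (SE 0.17) from 8.05 and 8.06 to 6.72 and 6.80. Igf2 and Airn differed by 0.85 and 0.38 with the mean of all their probe sets. Rasgrf1, Grb10 and Plagl1 differed by 0.46, -0.20 and -0.21 with that mean and did not pass.

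Of 54 junction and adhesion genes 6 rose and 5 fell (median 0.02). Rises numbered 1, 2, 4 and 3 and falls 0, 0, 3 and 2 without pre-pregnancy replicates 1 and 2 and pregnancy replicates 1 and 2 in turn. Tjp3 rose by 1.33 from a dim level, and the desmosomal Dsg2 and Dsc2 fell by 0.58 and 0.47. Of 50 cytoskeleton genes 6 fell and 2 rose (median -0.03). Rises became 0, 2, 3 and 4 and falls 0, 1, 5 and 3 without pre-pregnancy replicates 1 and 2 and pregnancy replicates 1 and 2 in turn. Tpm2, a tropomyosin, rose by 1.23 (SE 0.15), and Krt18, the hepatocyte keratin, by 0.74 (SE 0.11). Of 41 Bcl2 family and cell death genes 5 fell, Bmf the furthest, and 1 rose, Bcl2l11, by 0.72 (median -0.11). Falls became 1, 2, 7 and 3 and rises 0, 0, 1 and 1 without pre-pregnancy replicates 1 and 2 and pregnancy replicates 1 and 2 in turn. Of 43 immediate early and stress genes 6 rose and 3 fell (median 0.11). Rises numbered 2, 0, 3 and 4 and falls 0, 1, 2 and 1 without pre-pregnancy replicates 1 and 2 and pregnancy replicates 1 and 2 in turn. Gadd45b rose by 1.48 (SE 0.33), Klf10 by 1.15 and Junb by 1.06, and Dusp1, a phosphatase of stress kinases, fell by 0.81 (SE 0.14). Tpm2 differed by 0.69 with the mean of all its probe sets. Bcl2l11 differed by 0.32 with that mean and did not pass.

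Markers of other cell types bear on these bulk livers, in which fewer cells of a type and less RNA per cell cannot be told apart. Of 9 endothelial markers 3 fell and 0 rose (median -0.41), Emcn, Tek and Kdr by 0.46 to 0.70, and the list's median level was 7.67 and 7.45 before pregnancy and 7.24 and 7.19 in pregnancy. Falls became 0, 1, 2 and 0 without pre-pregnancy replicates 1 and 2 and pregnancy replicates 1 and 2 in turn. Of 8 Kupffer and macrophage markers 2 fell (median -0.30), Timd4 by 0.91 (SE 0.10) and Lyz2 by 0.47, with list medians of 10.23 and 10.24 before and 9.995 and 9.66 in pregnancy. Falls became 1, 1, 3 and 1 and rises 0, 0, 0 and 1 without pre-pregnancy replicates 1 and 2 and pregnancy replicates 1 and 2 in turn. The resident marker Clec4f differed by -0.36 (SE 0.16) and did not pass. Of 7 neutrophil markers 2 rose, S100a9 by 0.74 and Mpo, dim in both groups. Rises numbered 0, 1, 1 and 1 without pre-pregnancy replicates 1 and 2 and pregnancy replicates 1 and 2 in turn. Of 30 stellate cell and matrix genes 3 rose, the collagens Col4a1, Col4a2 and Col6a2 by 0.46 to 0.91, and 1 fell, Lrat. Rises became 1, 1, 2 and 1 and falls 0, 0, 1 and 1 without pre-pregnancy replicates 1 and 2 and pregnancy replicates 1 and 2 in turn. The part of cell numbers in the results above was not tested.

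Lymphoid, blood and duct markers were mostly dim. Of 18 T cell and natural killer markers 1 fell, Gzmb, dim in both groups, and of 14 B and plasma cell markers 1 rose, Ighm, the immunoglobulin M heavy chain, from 7.43 and 7.55 to 8.35 and 8.51. Of 15 erythroid markers 2 fell, Car1 and Car2, both lost without pre-pregnancy replicate 1, and hemoglobin Hba-a1 read 3.99 and 4.02 before and 4.25 and 3.96 in pregnancy. Probe sets with several symbols were not used for any gene. Whether the dim probe set of Hba-a1 reports hemoglobin was not checked, so its level is no measure of blood. Of 13 bile duct markers Prom1 fell by 0.88, with its call held in 1 of 6 left-out fits. Falls became 1, 0, 0 and 1 without pre-pregnancy replicates 1 and 2 and pregnancy replicates 1 and 2 in turn. Of 8 mesothelial markers Upk1b rose by 0.97, which was lost without either pre-pregnancy array or without pregnancy replicate 2. Of 8 adipocyte and 13 placenta and decidua markers none passed, with 1 rise in the latter without pregnancy replicate 1. The placental list had median levels of 3.56 and 3.71 before and 3.91 and 3.71 in pregnancy, at the dim end of the scale. Upk1b differed by 0.60 with the mean of all its probe sets. Ighm differed by 0.32 with that mean and did not pass.

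Markers of pancreatic acinar cells were examined because Cela3b is one. Of 16 measured, 2 rose, Cela3b and the dim Pnliprp1, and 1 fell, Cela1, by 1.18 (SE 0.11) from 10.37 and 10.46 to 9.14 and 9.33. Rises numbered 1, 1, 3 and 4 and falls 1, 1, 1 and 1 without pre-pregnancy replicates 1 and 2 and pregnancy replicates 1 and 2 in turn. The pregnancy arrays lay above both pre-pregnancy arrays for 8 of the 16 and below them for 1, where 33.6% and 26.0% of all genes did so. The list's median level was 4.75 and 4.79 before and 4.87 and 5.10 in pregnancy, and 2 of the 16 lay above the dim limit over all arrays. Cpa1, a carboxypeptidase that defines these cells, read 3.91 and 3.98 before pregnancy and 4.18 and 4.42 in pregnancy, a difference of 0.36 (SE 0.12). Ctrb1, a chymotrypsinogen, read 4.99 and 5.24 and then 5.23 and 5.35, a difference of 0.18 (SE 0.13), and neither passed. All 3 further probe sets of Cela3b rose, by 4.23 to 5.48. The part of pancreatic RNA in the rise of Cela3b was not tested. Of 39 olfactory receptors, not expected in liver, 1 rose at a dim level, and of the 6 left-out fits only that without pregnancy replicate 1 had a rise.

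Of 26 MHC and antigen presentation genes 1 fell, Psmb10, at -0.50, which is 3.85% called against 13.7% of all genes. Of these 26 genes 21 were of at least median brightness, and 20.4% and 20.9% of the 2 brightest bins were called. Rises became 0, 1, 0 and 0 and falls 0, 0, 2 and 1 without pre-pregnancy replicates 1 and 2 and pregnancy replicates 1 and 2 in turn. Of 50 chemokines, cytokines and their receptors 7 fell and 5 rose (median 0.01), 24.0% called. Falls became 2, 3, 11 and 5 and rises 0, 0, 4 and 2 without pre-pregnancy replicates 1 and 2 and pregnancy replicates 1 and 2 in turn. Ccl9 rose by 1.08 (SE 0.19) from 11.60 and 11.33 to 12.26 and 12.83, and Tnfrsf12a, the receptor of the cytokine TWEAK, by 1.02. Il15 fell by 1.13 (SE 0.12) and the death ligand Tnfsf10 by 0.94 (SE 0.18). Ccr2 passed as higher, but its other probe sets read -0.39 to 0.16 and 1 of them fell. Tnfsf10 differed by -0.61 with the mean of all its probe sets.

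Some genes did not pass while their 2 pregnancy livers lay far apart. The 8 furthest apart that did not pass were Pnpla3, Slc41a2, Dnajc12, Cyp7a1, Usp2, Fam47e, Cdc20 and Upp2. Pnpla3, a lipid droplet protein, read 10.32 and 9.48 before pregnancy and 6.37 and 10.15 in pregnancy. Cyp7a1, which sets the pace at which bile acids are made from cholesterol, read 11.18 and 11.36 and then 9.45 and 12.39. In both, 1 pregnant liver was far below the pre-pregnancy range and the other within or above it, and the difference of Cyp7a1 was -0.35 with all arrays but 1.12 without pregnancy replicate 1. Slc41a2, a magnesium carrier, and Dnajc12, a co-chaperone, went the other way, replicate 1 at the level before pregnancy and replicate 2 above it, at 7.85 and 11.57 and 9.07 and 12.09. Usp2, a deubiquitinase with a daily rhythm, read 9.68 and 9.50 before and 6.44 and 9.02 in pregnancy. The labels give no time of collection, so the part of time of day or feeding in these gaps was not tested.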

How the data were processed

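Total RNA was extracted from each liver with Trizol, and 250 ng was labelled with biotin for an Affymetrix 3′ expression array, per the labels' protocols. The deposited log2 values were made by the authors with RMA and Affymetrix Power Tools, per the submitters' processing notes. Their versions and options are unstated in the labels, and the log2 scale was read from the values, which ran from 2.69 to 15.05. RMA usually includes quantile normalization, which would hide a shift shared by all genes.

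Of 45101 probe sets, 34958 had exactly 1 symbol in the platform annotation, 932 had several and 9211 none. Identifiers of 34754 were found in the RefSeq gene table, and 0 symbols changed. Each of the 18194 genes tested was read from its single brightest probe set, by the mean of all 6 arrays. A group mean was fitted to all 6 arrays with limma 3.58.1 in R 4.3.3 (lmFit, eBayes, 3 residual and 4.80 prior degrees of freedom), and p-values were adjusted over all genes by Benjamini-Hochberg. With 2 arrays a group the number of arrays limits the precision. An exact permutation test could not reach the threshold at this size and was not used. The same fit was run on simulated data with 200 of 18194 genes changed. It found 6.57% of differences of 0.5, 86.7% of 1 and 99.2% of 2, and 4.29% of its calls were false. The simulated noise was independent between genes, with spreads drawn from the fit's own model. The 2 real pregnancy livers differed across whole lists, so the 4.29% is no error rate for the calls reported here.

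The 52 gene lists, and the choice of comparison, were made with earlier results of these data known. Named genes were the 20 largest rises and falls that were called, had arrays that did not overlap and reached median brightness in a group, outside Cyp2, Cyp3, Cyp4, Ugt, Sult, Gst, Ces, Fmo, Aox, Abcb and Abcc genes, then up to 4 called members a list, every called member where a direction had 5 or fewer, the 8 uncalled genes with the largest gap between pregnancy arrays, and Prlr, Ghr, Esr1, Nr3c1, Socs2, Cish, Igf1, Alb, Ttr and Hnf4a. Other members were named after their values were seen. Labels call the samples biological replicates. Other settings tried were a replicate block, no dim genes (lowest 40%), repeated quantile normalization, centred arrays, a trended robust variance, the mean of a gene's probe sets, every probe set, the 4 compared arrays alone, other thresholds and each array left out. Whether equal replicate numbers pair the samples is not stated. Deviations from the group means correlated at 0.0285 between pre-pregnancy and pregnancy, 0.1107 between pre-pregnancy and postpartum and -0.0273 between pregnancy and postpartum. These values do not settle the pairing.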

Additional observations from a re-analysis of the deposited data

How the results depend on the processing

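The 2494 differing genes (993 higher, 1501 lower) were 323 to 1977 over the arrays left out, 128 to 768 of them higher and 195 to 1256 lower. At an adjusted p under 0.1 there were 4066, 1818 of them higher. At 2-fold or more there were 431, 133 higher and 298 lower. Testing every probe set by itself gave 4475 calls, 2991 of them lower. With the replicate number as a replicate block the count was 2612, and the numbers share no known pairing. The other settings gave 1977 to 2787. Centring each array on its median gave 1197 higher and 1396 lower. The sign turned for Tgfa (0.0217), Mrpl21 (0.107), Surf4 (-0.041) and Ccr2 (-0.005) with the mean of all probe sets. Leaving out 1 array turned the sign for 0 of 245 named genes that passed. Their pregnancy and pre-pregnancy arrays did not overlap, so no single array could turn it, and that count tests nothing. Of 15 named genes that did not pass, some were picked for a large gap between pregnancy arrays. The sign turned for 8 of the 15: Cyp7a1 (-1.82 to 1.12), Pnpla3 (-3.53 to 0.25), Cdc20 (-0.86 to 1.53), Fam47e (-1.98 to 0.48), Upp2 (-2.09 to 0.30), Dnajc12 (-0.08 to 2.94), Socs2 (-0.27 to 0.75) and Cish (-0.78 to 0.69). The cause was not tested. Of the called genes, 1445 had other probe sets: in 600 another one passed the same way and in 17 the opposite way. Dim signal limits the dimmest genes, where few calls were made and falls are understated.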
